A study of Mus musculus with 8 samples.

Results

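The genes described here are 9 that handle iron in mammalian cells: Tfrc, Slc11a2 and Steap3, which act in uptake, Slc40a1 in export, Fth1 and Ftl1 in storage, Hmox1 in the release of iron from haem, and Ireb2 and Aco1, which sense iron and regulate the others. They were chosen by gene symbol from knowledge of the pathway, with earlier results of these data known. Each was read from its brightest probe set with 1 gene symbol. All 9 were measured, out of 19938 genes. The study sorted mouse bone marrow cells by flow cytometry and profiled their RNA on 8 Affymetrix arrays, and its title names overexpression of HMGA2, a chromatin-binding protein. The 4 groups, of 2 arrays each, were TG MEP, WT MEP, TG KLS and WT KLS. TG cells came from mice labelled ∆Hmga2 and WT cells from wild-type mice, all of strain C57BL/6J, and no treatment or age is given in the labels. KLS is the usual name for Kit-positive, lineage-negative, Sca-1-positive cells, the marrow cells among which blood stem cells and their earliest multipotent offspring lie, and MEP for megakaryocyte-erythroid progenitors, which go on to form red cells and platelets. Each array held its own RNA preparation, pooled from 4 or 6 mice, and the sources used here do not give the promoter that drives the transgene.

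Cells take up iron when transferrin binds the transferrin receptor (Tfrc) and is drawn into endosomes, where the reductase Steap3 reduces the iron and the transporter Slc11a2, also called DMT1, carries it into the cytosol. Iron that is not used is stored in ferritin shells built of Fth1 and Ftl1 chains or leaves the cell through ferroportin (Slc40a1), and the haem oxygenase Hmox1 frees iron from haem. The iron regulatory proteins IRP2 (Ireb2) and IRP1 (Aco1) bind stem-loops in several of these mRNAs when iron is scarce, which blocks the translation of ferritin and stabilises Tfrc mRNA. Developing red cells take up far more iron than other cells because they make haem, so that iron genes are known to differ along the erythroid lineage.

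Values are log2 levels after quantile normalization. The 2 arrays of a group correlated at r = 0.981 to 0.988 over all genes. The cell labels were checked against marker genes. Of the 7 measured stem and multipotent progenitor markers, 5 were lower in MEP than in KLS cells at adjusted p under 0.05 in limma. Among them were Cd34 and Flt3, and 1.2% of all genes passed as lower. The mean level of the 7 was 6.63 to 7.34 on MEP arrays and 8.30 to 8.58 on KLS arrays. Of the 8 MEP markers, 0 passed, and 2 had an unadjusted p under 0.05 in limma, against 14.3% of all genes. The mean of the 8 was 8.37 to 8.51 on MEP arrays and 8.26 to 8.43 on KLS arrays. The erythroid factor Gata1 was 0.50 higher in MEP cells with an adjusted p of 0.057 in limma. The other marker with an unadjusted p under 0.05, Itga2b, the megakaryocyte integrin CD41, went the other way, at -0.27 (adjusted p = 0.318 in limma), with all MEP arrays below all KLS arrays. The WT MEP 1 array stood apart from the other MEP arrays, with a mean over 11 lymphoid markers of 7.77, against 6.24 to 6.46 on the other 3. Over the stem and multipotent progenitor markers its mean was 7.34, against 6.63 to 6.70. Over 12 neutrophil markers it was 9.69, against 8.21 to 8.93. On 2 KLS arrays, TG KLS 1 and WT KLS 1, 11 of 12 markers of iron-recycling macrophages were higher than on all 6 other arrays. The share of all genes for which this held was not counted. Over all genes, the difference between arrays 1 and 2 in TG KLS cells correlated at 0.385 with that in WT KLS cells. For Tfrc, Slc11a2, Hmox1, Gclc, Ampd3 and Trf the test is also given without those 2 arrays. The Hmga2 probe set read 6.95 and 6.99 in TG MEP cells, 6.70 and 6.74 in WT MEP cells, 7.35 and 7.11 in TG KLS cells and 6.85 and 7.12 in WT KLS cells. Its genotype difference over both cell types was 0.25 ± 0.108 (SE) with an adjusted p of 0.999 in limma. TG arrays lay above WT arrays in MEP cells and overlapped them in KLS cells, and the sources used here do not give which part of Hmga2 the probe set reads.

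Tfrc and Slc11a2, which bring transferrin iron into the cell, were the 2 genes of the 9 that passed the test between cell types. Both were higher in MEP cells than in KLS cells, averaged over genotypes, and 0 of 9 passed as lower. Among all genes, 0.396% passed as higher in MEP cells and 1.2% as lower, at an adjusted p under 0.05 in limma with Benjamini-Hochberg adjustment over all genes. The groups of 4 MEP and 4 KLS arrays did not overlap for 5 of 9 genes, each higher in MEP cells (Tfrc, Slc11a2, Slc40a1, Fth1 and Ireb2). Of 19938 genes, 923 (4.63%) did not overlap with MEP cells higher, and 880 with MEP cells lower. At an unadjusted p under 0.05, 6 of 9 passed in either direction, against 14.3% of all genes. The median difference of the 9 was 0.27 on the log2 scale, against -0.0133 for all genes. The RNA came from sorted bulk cells, so that fewer cells of a type and less RNA per cell cannot be told apart.

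**Figure D1:**
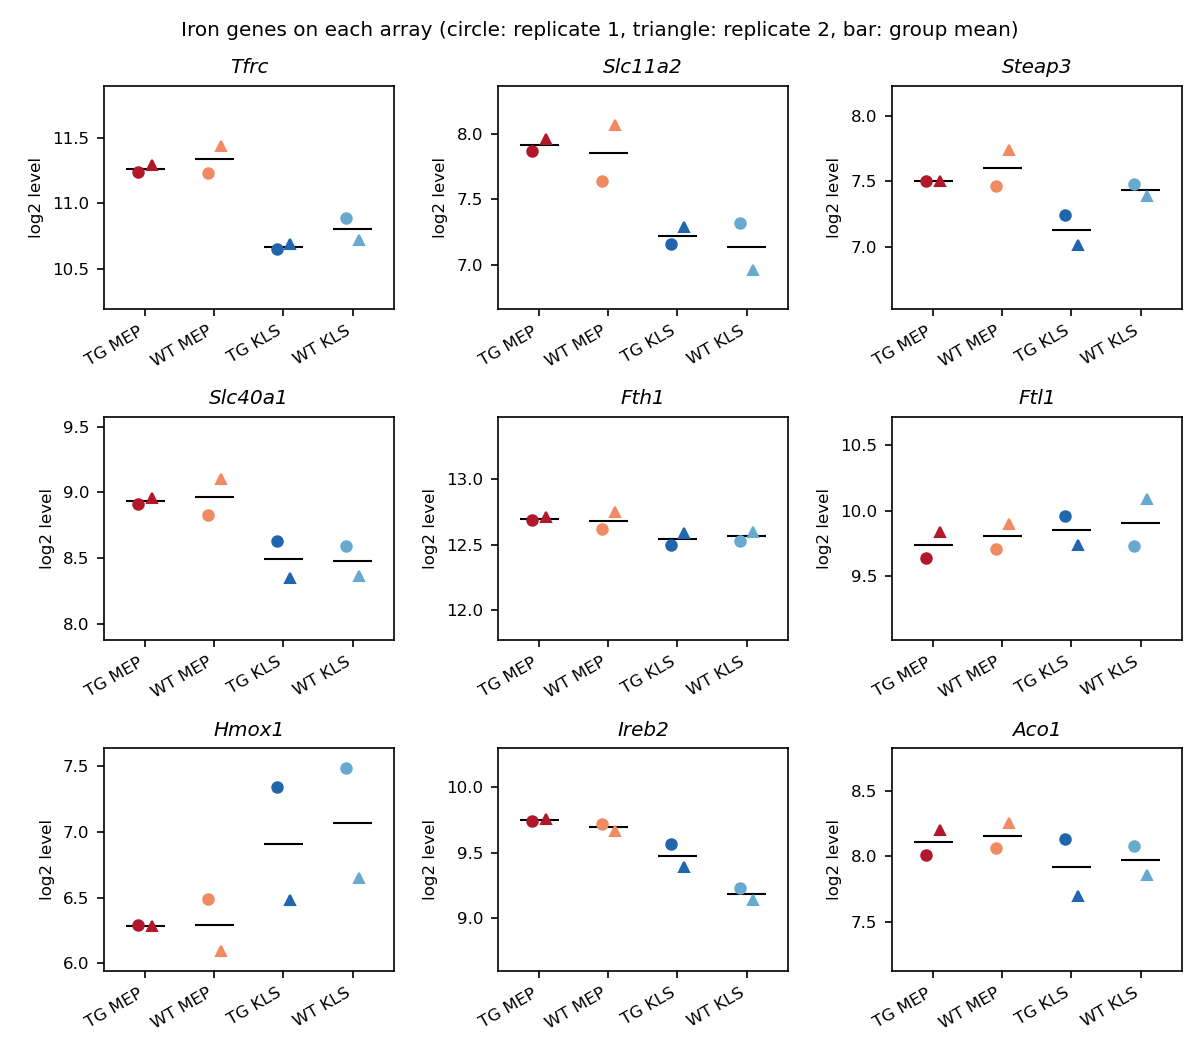
Quantile-normalized log2 level of each of the 9 iron genes on the 8 arrays, 1 panel per gene with its own axis; points are arrays, and groups run TG MEP, WT MEP, TG KLS, WT KLS from left to right. All 4 MEP arrays lie above all 4 KLS arrays for Tfrc, Slc11a2, Slc40a1, Fth1 and Ireb2, and Hmox1 is highest on TG KLS 1 and WT KLS 1.

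Tfrc encodes the receptor through which erythroid cells take in transferrin. A stretch upstream of 1 of its 2 annotated starts is shown because Tfrc was the called gene for which a sequence was at hand. It belongs to the start nearer the gene body. The window of the other start held none of the 3 motifs marked, and held 1 CCAAT box and 1 GATA core. That window ends at chr16:32608895, inside the printed stretch. The first motif marked runs across that end, and the other 2 lie past it, downstream of the other start. The first run of capitals is ACGTG, the core of a hypoxia response element. The second run is TGACGT, which is like a cyclic AMP response element. The third run is TATAA, the usual form of the TATA box. It is printed 5′ to 3′ on the plus strand and lies at chr16:32608872-32608971 in GRCm38.p6, from RefSeq.
Tfrc: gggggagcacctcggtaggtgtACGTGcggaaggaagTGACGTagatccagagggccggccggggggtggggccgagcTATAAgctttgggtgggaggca
The 3 matches start 228, 213 and 172 bases before the start nearer the gene body. In the 250 bases before the start in 32851 RefSeq windows, searched on both strands, 16.6% held the hypoxia response core, 6.47% the cyclic AMP response-like letters and 22.8% the TATA box. The first and the second of these motifs can overlap by shared letters. The match is a description of letters, and no measurement here reads binding to it.

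The Tfrc probe set (10435075) read 11.24 and 11.29 in TG MEP cells, 11.23 and 11.44 in WT MEP cells, 10.65 and 10.69 in TG KLS cells, and 10.89 and 10.72 in WT KLS cells. Every MEP array lay above every KLS array, and within MEP cells the genotypes overlapped. The mean was 11.30 ± 0.0979 in MEP cells and 10.74 ± 0.106 in KLS cells (SD, n = 4 each). The difference was 0.56 ± 0.101 (SE; 95% interval 0.33 to 0.79), a 1.48-fold higher level in MEP cells, with an adjusted p of 0.0407 in limma. It was 0.59 in TG cells and 0.53 in WT cells, neither of which passed (adjusted p = 0.173 and 0.326 in limma). Without any 1 of the 7 arrays other than WT MEP 1, the adjusted p was 0.0751 to 0.15 and the gene no longer passed, while the difference stayed at 0.51 to 0.60. Without WT MEP 1, the adjusted p was 0.024. The number of all genes that passed moved too, to 1 to 226 in those 7 fits and 738 without WT MEP 1, against 319 with all arrays.

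Slc11a2 carries ferrous iron across the endosomal membrane. Its probe set (10432573) read 7.87 and 7.96 in TG MEP cells, 7.64 and 8.07 in WT MEP cells, 7.16 and 7.29 in TG KLS cells, and 7.32 and 6.96 in WT KLS cells. The 2 cell types did not overlap, while the 2 genotypes overlapped within each cell type. The mean was 7.89 ± 0.186 in MEP cells and 7.18 ± 0.166 in KLS cells (SD, n = 4 each). The difference was 0.70 ± 0.134 (SE; 95% interval 0.40 to 1.01), a 1.63-fold higher level in MEP cells, with an adjusted p of 0.0449 in limma. It came to 0.69 in TG cells and 0.71 in WT cells (adjusted p = 0.231 and 0.326 in limma). As for Tfrc, the call was lost without any 1 array other than WT MEP 1, with an adjusted p of 0.0608 to 0.164. Without WT MEP 1 the adjusted p was 0.0169. With each array centred on its median in place of quantile normalization, neither gene passed (adjusted p = 0.0643 for Tfrc and 0.0633 for Slc11a2).

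Steap3, the endosomal ferrireductase of red cell precursors, differed less. It read 7.50 and 7.50 in TG MEP cells, 7.46 and 7.74 in WT MEP cells, 7.24 and 7.01 in TG KLS cells, and 7.48 and 7.39 in WT KLS cells. The WT KLS 1 array, at 7.48, lay within the MEP range, so that the cell types overlapped. The difference was 0.27 ± 0.110 (SE; 95% interval 0.021 to 0.52), with an adjusted p of 0.301 in limma.

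Slc40a1, or ferroportin, is the one known exporter of cellular iron in vertebrates. It read 8.91 and 8.96 in TG MEP cells, 8.83 and 9.10 in WT MEP cells, 8.63 and 8.35 in TG KLS cells, and 8.59 and 8.36 in WT KLS cells. All MEP arrays lay above all KLS arrays, and the genotypes overlapped in both cell types. The difference was 0.47 ± 0.117 (SE; 95% interval 0.20 to 0.73), with an adjusted p of 0.0947 in limma, so that the exporter did not pass the threshold that both importers passed. Whether its difference was smaller than theirs was not tested. Among KLS cells, Slc40a1 read 8.63 and 8.59 on the arrays high in macrophage markers, and 8.35 and 8.36 on the others. The share of all genes separated in this way was not counted. The part of macrophage RNA in these levels was not tested, and the Slc40a1 difference between cell types without those arrays is not given.

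Ferritin was the storage form measured. Its heavy chain, Fth1, oxidises iron for deposition, and its light chain, Ftl1, helps to form the iron core. Stretches upstream of an annotated start of each, for Fth1 1 of 2, are shown because the 2 chains build 1 shell. The window of the other Fth1 start held no CCAAT box. Both are printed 5′ to 3′ on the gene's strand, with capitals marking ATTGG, which is a CCAAT box read on the opposite strand. The Fth1 stretch lies at chr19:9982566-9982645 on the plus strand and the Ftl1 stretch at chr7:45459887-45459966 on the minus strand, both in GRCm38.p6 from RefSeq.
Fth1: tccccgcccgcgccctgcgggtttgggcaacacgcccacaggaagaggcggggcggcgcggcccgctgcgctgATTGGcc
Ftl1: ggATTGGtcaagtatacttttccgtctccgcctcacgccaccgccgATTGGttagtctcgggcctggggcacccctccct
The match starts 7 bases before the start in Fth1, and in Ftl1 the matches start 78 and 34 bases before it. CCAAT was found, on either strand, in 33.8% of all such windows.

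Fth1 read 12.69 and 12.71 in TG MEP cells, 12.62 and 12.75 in WT MEP cells, 12.50 and 12.59 in TG KLS cells, and 12.53 and 12.60 in WT KLS cells. The cell types did not overlap, but the highest KLS array and the lowest MEP array were 12.60 and 12.62. The difference was 0.14 ± 0.0941 (SE; 95% interval -0.075 to 0.35), with an adjusted p of 0.615 in limma. Ftl1 read 9.64 and 9.84 in TG MEP cells, 9.71 and 9.90 in WT MEP cells, 9.96 and 9.74 in TG KLS cells, and 9.73 and 10.09 in WT KLS cells. Its arrays overlapped, and the difference was -0.11 ± 0.124 (SE; 95% interval -0.39 to 0.17), with an adjusted p of 0.817 in limma. Ferritin is known to be controlled largely at translation, which these arrays do not read.

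Hmox1, the inducible haem oxygenase, was the one gene of the 9 with a difference in the other direction at an unadjusted p under 0.05. It read 6.29 and 6.28 in TG MEP cells, 6.49 and 6.09 in WT MEP cells, 7.34 and 6.48 in TG KLS cells, and 7.49 and 6.65 in WT KLS cells. The KLS arrays numbered 1 were the highest in both genotypes, and TG KLS 2 overlapped WT MEP 1. The mean was 6.29 ± 0.163 in MEP cells and 6.99 ± 0.499 in KLS cells (SD, n = 4 each). The difference was -0.70 ± 0.231 (SE; 95% interval -1.23 to -0.18), with an adjusted p of 0.185 in limma.

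Hmox1 is strongly expressed by macrophages that recycle red cells, and their markers moved with it. Over 12 such markers the mean log2 level was 5.70 and 5.73 on TG MEP arrays, 5.93 and 5.88 on WT MEP arrays, 6.87 and 6.09 on TG KLS arrays, and 7.0 and 6.14 on WT KLS arrays. The mannose receptor Mrc1 read 7.85 and 7.95 on TG KLS 1 and WT KLS 1, and 6.01 and 6.06 on TG KLS 2 and WT KLS 2. Averaged over genotypes, all 12 markers were lower in MEP cells. Of these, 0 of 12 passed an adjusted p of 0.05 in limma, against 1.2% of all genes as lower. An unadjusted p under 0.05 was reached by 8, against 14.3% of all genes. Without TG KLS 1 and WT KLS 1 the Hmox1 difference was -0.28, with an adjusted p of 0.581, and 0 of the 9 iron genes passed between cell types. In that fit Tfrc was 0.59 higher in MEP cells (adjusted p = 0.182 in limma) and Slc11a2 0.76 higher (adjusted p = 0.164). The part of macrophage RNA in the Hmox1 difference was not tested.

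**Figure D2:**
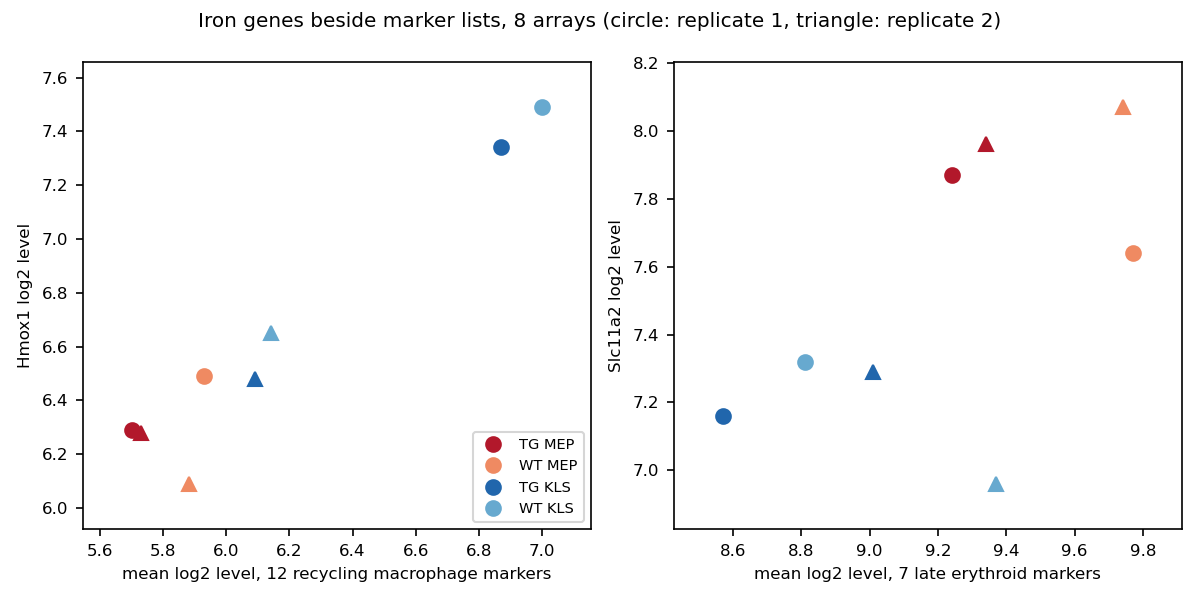
Left, log2 level of Hmox1 against the mean log2 level of 12 recycling macrophage markers; right, log2 level of Slc11a2 against the mean of 7 late erythroid markers, 1 point per array with groups by colour and replicate numbers by shape. TG KLS 1 and WT KLS 1 lie at the upper right on the left, and on the right the MEP arrays lie above the KLS arrays, with WT KLS 2 at 9.37 and the TG MEP arrays at 9.24 and 9.34 on the marker axis.

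Markers of later red cell precursors stand beside the uptake genes. Their mean over 7 measured genes was 9.24 and 9.34 on TG MEP arrays, 9.77 and 9.74 on WT MEP arrays, 8.57 and 9.01 on TG KLS arrays, and 8.81 and 9.37 on WT KLS arrays. Averaged over genotypes, all 7 were higher in MEP cells. The blood group antigen gene Rhd was the 1 that passed, against 0.396% of all genes as higher. In TG cells alone 6 of the 7 markers were higher and 1 lower. The lower one was Alas2, at -0.18 (adjusted p = 0.894 in limma), with all TG MEP arrays below all TG KLS arrays. On TG MEP, WT MEP, TG KLS and WT KLS arrays, Slc11a2 read 7.87 and 7.96, 7.64 and 8.07, 7.16 and 7.29, and 7.32 and 6.96. In the same order, Tfrc read 11.24 and 11.29, 11.23 and 11.44, 10.65 and 10.69, and 10.89 and 10.72. The part of more mature erythroid RNA in the Tfrc and Slc11a2 differences was not tested.

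Both iron regulatory proteins were measured. Ireb2 (IRP2), which is degraded when iron is plentiful, read 9.74 and 9.76 in TG MEP cells, 9.72 and 9.67 in WT MEP cells, 9.57 and 9.39 in TG KLS cells, and 9.23 and 9.14 in WT KLS cells. The cell types did not overlap, and the MEP arrays spread less (9.72 ± 0.0376, SD, n = 4) than the KLS arrays (9.33 ± 0.191, SD, n = 4), a difference in spread that was not tested. The difference in level was 0.39 ± 0.0966 (SE; 95% interval 0.17 to 0.61), with an adjusted p of 0.0886 in limma.

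Aco1 (IRP1) is a cytosolic aconitase when it holds an iron-sulphur cluster and binds RNA when it does not. It read 8.01 and 8.20 in TG MEP cells, 8.06 and 8.25 in WT MEP cells, 8.13 and 7.70 in TG KLS cells, and 8.08 and 7.86 in WT KLS cells. The arrays overlapped, and the difference was 0.19 ± 0.129 (SE; 95% interval -0.10 to 0.48), with an adjusted p of 0.617 in limma. Among KLS cells, Aco1 too was higher on the arrays high in macrophage markers (8.13 and 8.08) than on the others (7.70 and 7.86). So was Hmox1, while Fth1 was lower on them. Tfrc, Slc11a2, Steap3, Ftl1 and Ireb2 overlapped between those 2 pairs of arrays. The pairs were set apart after seeing the data, and the share of all genes separated in this way was not counted. The part of macrophage RNA in these levels was not tested.

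**Figure D3:**
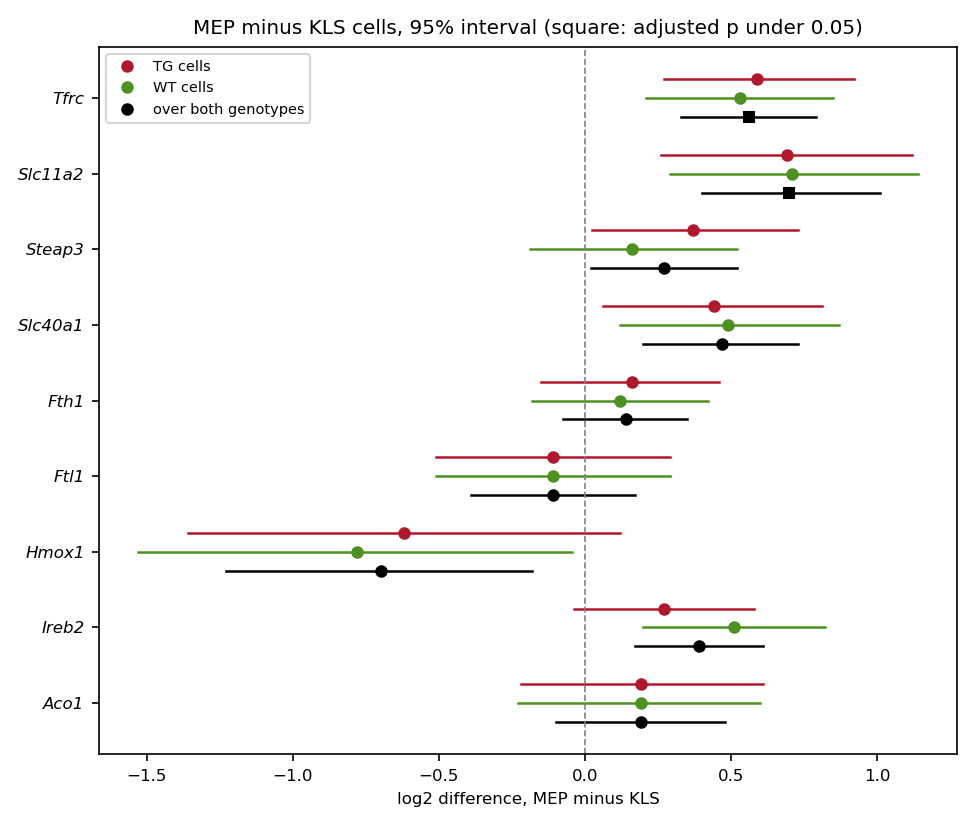
Log2 difference, MEP minus KLS, of the 9 iron genes in TG cells, in WT cells and over both genotypes, with 95% intervals from limma; squares mark an adjusted p under 0.05. Tfrc (0.56) and Slc11a2 (0.70) carry the 2 squares, both over the 2 genotypes together, and Hmox1 lies furthest to the left.

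Within 1 genotype, 0 of 9 genes passed between MEP and KLS cells in limma. In TG cells 0.135% of all genes passed and in WT cells 0.00502%, so that the single-genotype comparisons of 2 against 2 arrays called few genes of any kind. At an unadjusted p under 0.05, 4 of 9 passed in TG cells (Tfrc, Slc11a2, Steap3 and Slc40a1), against 9.61% of all genes, and 5 of 9 in WT cells (Tfrc, Slc11a2, Slc40a1, Hmox1 and Ireb2), against 8.9%. Ireb2 differed by 0.27 in TG cells and 0.51 in WT cells, and Steap3 by 0.37 in TG cells and 0.16 in WT cells. Whether such differences varied with genotype is tested by the interaction term.

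The comparison of TG with WT cells asks whether the Hmga2 allele went with a different level of these genes. In KLS cells 0 of 9 passed in limma, as did 0% of all genes, and 0 of 9 had an unadjusted p under 0.05, against 2.51% of all genes. In MEP cells 0 of 9 passed, again against 0% of all genes, and 0 of 9 had an unadjusted p under 0.05, against 3.71%. Averaged over both cell types 0 of 9 passed (0% of all genes), and 0 of 9 had an unadjusted p under 0.05, against 3.26%. For 0 of 9 did all TG arrays lie on 1 side of all WT arrays over both cell types, against 0.582% of all genes with TG higher and 1.02% with TG lower. Every adjusted p for the 9 genes was 0.999 or 1.

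The smallest unadjusted p of the 9 was that of Ireb2 in KLS cells. There the TG arrays read 9.57 and 9.39 and the WT arrays 9.23 and 9.14, without overlap, a difference of 0.30 ± 0.137 (SE; 95% interval -0.015 to 0.61; unadjusted p = 0.0596, adjusted p = 1 in limma). TG arrays also lay above WT arrays for Ireb2 in KLS cells when the values were used as deposited (0.37) or centred on each array's median (0.40). In MEP cells the Ireb2 difference was 0.055 ± 0.137 (SE), and its sign turned under both of those scalings. With 2 arrays against 2, groups that do not overlap were common: 11.7% of all genes had both TG arrays above both WT arrays in KLS cells and 17.2% below, and 13% had them above in MEP cells.

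Steap3 in KLS cells was the gene with the next smallest p. Its TG arrays, at 7.24 and 7.01, lay below the WT arrays, at 7.48 and 7.39, a difference of -0.31 ± 0.155 (SE; 95% interval -0.66 to 0.043; unadjusted p = 0.0783, adjusted p = 1 in limma). The arrays still did not overlap as deposited, and met at 7.30 when centred on the median. Tfrc in KLS cells differed by -0.14 ± 0.143 (SE), with TG arrays at 10.65 and 10.69 and WT arrays at 10.89 and 10.72. Its arrays overlapped under both other scalings.

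After quantile normalization, TG and WT arrays overlapped for each remaining genotype difference. Under both other scalings, both TG arrays lay below both WT arrays for Steap3 in MEP cells. As deposited these read 7.40 and 7.52 against 7.57 and 7.72. With median centring, Fth1 in KLS cells was higher on TG arrays (12.58 and 12.57) than on WT arrays (12.50 and 12.56). The share of all genes without overlap under those scalings was not counted. In MEP cells the 9 ran from -0.098 for Steap3 to 0.064 for Slc11a2, and the sign for Slc11a2 turned under both other scalings. The 95% intervals were narrowest for Fth1, -0.29 to 0.32 in MEP cells and -0.32 to 0.28 in KLS cells, and widest for Hmox1, -0.74 to 0.74 in MEP cells and -0.90 to 0.58 in KLS cells. Changes inside those intervals could not be told from none with 2 arrays a group.

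The interaction, the genotype difference in MEP cells minus that in KLS cells, passed for 0 of 9 genes and for 0% of all genes in limma. At an unadjusted p under 0.05 it passed for 0 of 9, against 2.27% of all genes. Its estimate was -0.24 ± 0.193 (SE) for Ireb2 and 0.21 ± 0.219 (SE) for Steap3, with an adjusted p of 1 for both.

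**Figure D4:**
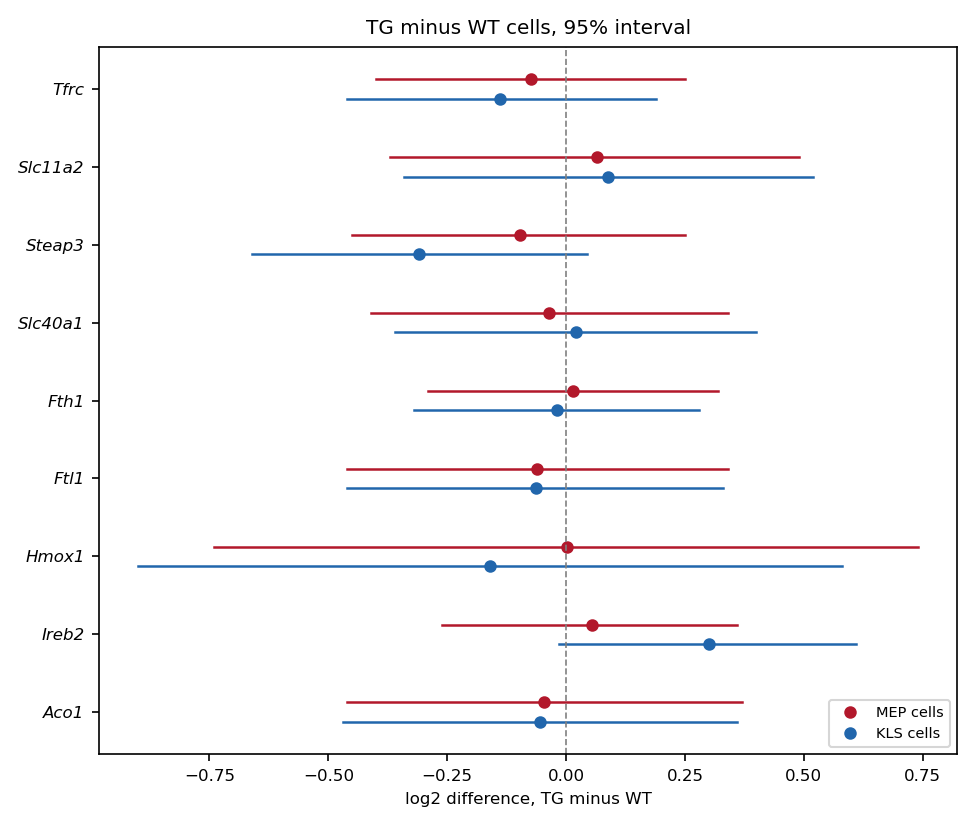
Log2 difference, TG minus WT, of the 9 iron genes in MEP cells and in KLS cells, with 95% intervals from limma. Every interval crosses 0, and the points farthest from 0 are Ireb2 (0.30) and Steap3 (-0.31) in KLS cells.

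Ordered by group mean, the 9 genes did not share 1 pattern. Tfrc, Steap3 and Slc40a1 were highest in WT MEP cells, and Slc11a2, Fth1 and Ireb2 in TG MEP cells, but the 2 MEP groups overlapped for each of these except Ireb2. Aco1 was also highest in WT MEP cells, with each neighbouring pair of groups overlapping. Ftl1 and Hmox1 were highest in WT KLS cells, where they overlapped TG KLS cells. The range of the 4 group means was widest for Hmox1 (0.785) and Slc11a2 (0.779) and narrowest for Fth1 (0.156).

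Across the 8 arrays, Tfrc and Slc11a2 followed each other with a Pearson r of 0.946, Slc11a2 and Slc40a1 with 0.928, and Tfrc and Slc40a1 with 0.927. Fth1 and Hmox1 had an r of -0.912. These values describe 8 arrays that fall into 2 cell types, so that genes that both differ between the cell types tend to correlate. Fth1 and Hmox1 did not pass between cell types. The KLS arrays numbered 1 were the lowest of all for Fth1 and the highest for Hmox1. By the same measure, the 5 genes most like Tfrc were Sprr2k, Phf10, Cpox, Apex2 and Kif14, at 0.97 to 0.98. Cpox, an enzyme of haem synthesis, was 0.49 ± 0.103 (SE) higher in MEP cells, with an adjusted p of 0.0527 in limma. The 5 most like Slc11a2 were Tbccd1, Wdhd1, Ptp4a2, Spire1 and Ampd3, at 0.982 to 0.989. Ampd3, the AMP deaminase of red cells, was 0.59 ± 0.108 (SE) higher in MEP cells, with an adjusted p of 0.0419 in limma. That call was lost without any 1 array other than WT MEP 1, at an adjusted p of 0.082 to 0.159, with median centring, at 0.058, and without both KLS arrays numbered 1, at 0.19.

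Beyond the 9 genes, 76 of 81 genes on 6 further iron lists were measured. Between MEP and KLS cells 1 of the 76 passed as higher and 1 as lower in limma, against 0.396% and 1.2% of all genes. At an unadjusted p under 0.05 in limma, 15 of the 76 passed, against 14.3% of all genes. The median difference of the 76 was 0.0224, against 0.27 for the 9 genes and -0.0133 for all genes. The lists of iron uptake (16 measured), storage and chaperones (7), mitochondrial iron and iron-sulphur clusters (16) and iron regulation (13) had 0 genes past the threshold, with 4, 1, 2 and 0 at an unadjusted p under 0.05. The list of haem transport and breakdown (12) had 1 lower, and the list of the Nrf2 and Bach1 oxidative response (12) had 1 higher.

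**Figure D5:**
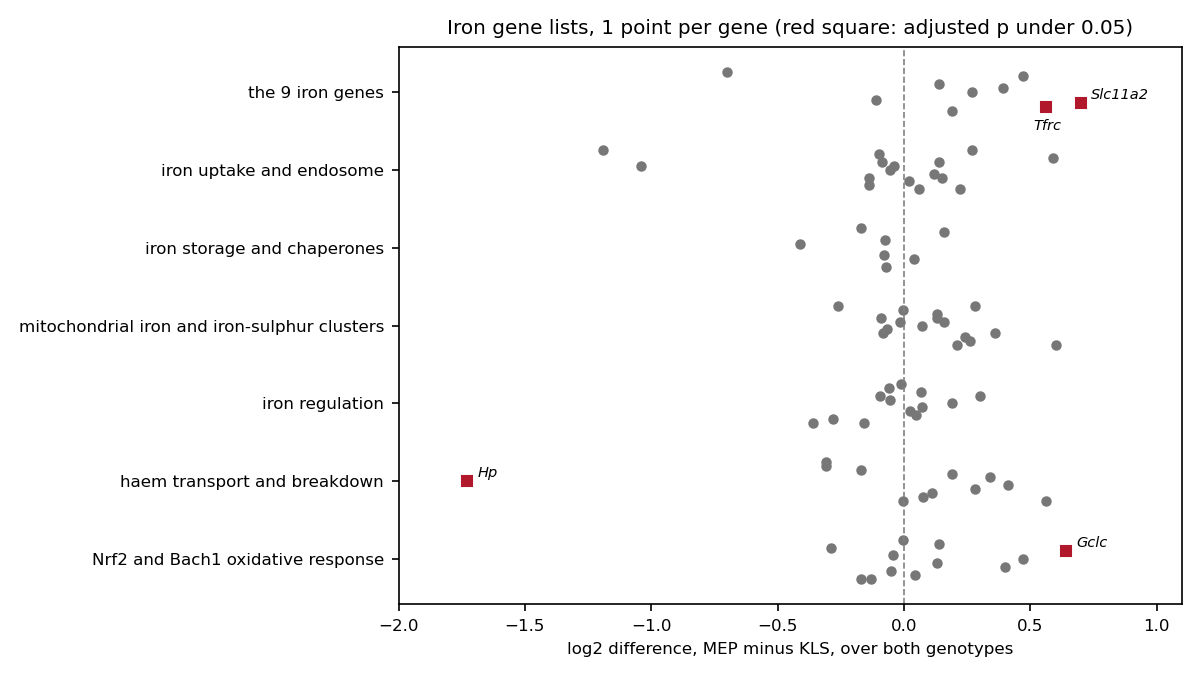
Log2 difference, MEP minus KLS over both genotypes, of each measured gene of the 9 and of the 6 further iron lists, 1 point per gene; red squares mark an adjusted p under 0.05 and carry the gene's name. The squares are Tfrc, Slc11a2, Gclc (0.64) and Hp (-1.73).

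Gclc, the catalytic subunit of the enzyme that starts glutathione synthesis, read 9.51 and 9.41 in TG MEP cells, 9.33 and 9.56 in WT MEP cells, 8.78 and 9.03 in TG KLS cells, and 8.77 and 8.68 in WT KLS cells. No MEP array overlapped a KLS array, and the difference was 0.64 ± 0.108 (SE), with an adjusted p of 0.0362 in limma. Its call was lost without any 1 of 6 arrays, at an adjusted p of 0.071 to 0.143, and without both KLS arrays numbered 1, at 0.191.

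Hp encodes haptoglobin, which binds free haemoglobin and is also made by granulocyte precursors. It read 6.84 and 6.78 in TG MEP cells, 8.24 and 7.80 in WT MEP cells, 9.48 and 8.46 in TG KLS cells, and 9.22 and 9.40 in WT KLS cells. All MEP arrays lay below all KLS arrays, and the difference was -1.73 ± 0.210 (SE), with an adjusted p of 0.0117 in limma. Without TG MEP 1 or TG MEP 2 the adjusted p was 0.0629 or 0.0641. In TG cells alone Hp was -2.16 (adjusted p = 0.0417 in limma), a call that was lost with the values as deposited (0.0508). Beside it, the mean of 12 neutrophil markers was 8.21 and 8.32 on TG MEP arrays, 9.69 and 8.93 on WT MEP arrays, 10.19 and 9.86 on TG KLS arrays, and 10.03 and 10.46 on WT KLS arrays. All 12 were lower in MEP cells and 5 passed, against 1.2% of all genes as lower. The part of these markers in the Hp difference was not tested.

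Other genes of these lists stayed outside the threshold in limma. Those with an unadjusted p under 0.05 included transferrin itself (Trf), at -1.04 with an adjusted p of 0.0645, and the metal transporter Slc39a8, at 0.59 with 0.0572. The haem exporter Abcg2 was at 0.56 with 0.0537, and Abcb10, a mitochondrial transporter of erythroid cells, at 0.60 with 0.101. Trf read 8.53 on both KLS arrays numbered 1, which were also high in macrophage markers, and 7.70 and 7.64 on the TG and WT KLS arrays numbered 2. Without the 2 KLS arrays numbered 1 the Trf difference was -0.61, with an adjusted p of 0.205 in limma, and without TG KLS 2 or WT KLS 2 it passed, at 0.0464 or 0.047. Whether macrophage RNA had a part in it was not tested.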

How the data were processed

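Total RNA from 8 sorted cell preparations was hybridised to Affymetrix arrays, 1 array each. The deposited values are log2 levels per probe set, made by the authors with Affymetrix Expression Console, per the submitters' processing notes, with no version named. Their summarization, background correction and normalization are unstated, and the log2 scale was read from the values, which run from 1.71 to 14.0. Array medians spanned 0.106 (6.34 to 6.45), more than the tolerance of 0.1, so arrays were quantile normalized. Of 35556 probe sets, the platform annotation gave 1 symbol to 21789, several to 1621 and none to 12146, and 21698 were matched by Entrez identifier to RefSeq names of GRCm38.p6, with 0 symbols changed. The brightest probe set was kept for each of 19938 genes. For Ftl1, 4 further probe sets carry other genes' symbols as well and were not used. The MEP minus KLS differences of those 4 ran from -0.18 to -0.14, against -0.11 for the probe set used, and were not tested.

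R 4.3.3 and limma 3.58.1 were used to fit 1 mean per group to all 8 arrays (functions lmFit, contrasts.fit, eBayes), which left 4 degrees of freedom beside a prior of 4.82. The 7 differences taken were MEP minus KLS in TG cells, in WT cells and averaged over both genotypes, TG minus WT in MEP cells, in KLS cells and averaged over both cell types, and the interaction. Tests were two-sided, and a call means a Benjamini-Hochberg adjusted p under 0.05 over all genes. SE is limma's standard error. P-values measure the spread between pools, and the number of arrays limits the precision. The code was tested on simulated data.

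The 9 genes, the 6 further iron lists and the marker lists were chosen with earlier results of these data known. All 9 genes are named in each contrast. From the further lists, genes that passed are named, or else the 2 with the smallest p, and each called gene of the 9 adds the 5 genes of highest Pearson correlation. Trf, Slc39a8, Abcg2 and Abcb10 were named after their values were seen. Some listed genes were not analysed here, and each list's count is over its measured genes. The fit was repeated on values without quantile normalization, on median-centred arrays, with the dimmest 30% of genes dropped, with a gene's probe sets averaged, with an intensity trend, with array weights, with a replicate block, with only the groups compared, and with each array left out in turn. Leaving out both KLS arrays numbered 1, and crossing the replicate numbers of TG MEP, were chosen after seeing the data. RefSeq held upstream windows for 6 of the 9 genes, 11 windows in all, and 5 short motifs were searched on both strands in the 250 bases before each start: the 4 spelled out with the sequences, and the core GATA, which 53.6% of all windows held.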

Additional observations from a re-analysis of the deposited data

Results flagged for a closer look

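Steap3 on the WT MEP 2 array, at a log2 level of 7.74, stood apart from the other 3 MEP arrays, at 7.50, 7.50 and 7.46. Its gap to the nearest of them was 0.852 of the range of the 4 arrays, above Dixon's 95% critical value for 4 values. The 9 genes were tested in MEP and in KLS arrays, 18 tests in all, and chance flags about 1 in 20 such tests. Without that array the Steap3 difference between MEP and KLS cells was 0.20, against 0.27 with it.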

How the results depend on the processing

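The count of 9 iron genes that passed between MEP and KLS cells, 2 over both genotypes, was 0 with each array centred on its median, 0 without both KLS arrays numbered 1, and 0 to 2 without 1 array. A group left with 1 array was assumed to vary like the other groups. In the other 6 contrasts it was 0 under every alternative run. Over all genes, 79 were higher and 240 lower in MEP cells, against 72 and 162 with the values as deposited and 44 and 79 with median centring. The further iron genes that passed numbered 2, against 0 to 5 under the alternatives. The differences of Tfrc and Slc11a2 between MEP and KLS cells kept their sign under every alternative. No cause was tested for any of these changes.

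Whether the replicate numbers pair the arrays is not settled. Deviations of same-numbered arrays from their group means correlated at 0.18 to 0.385 over genes among WT MEP, TG KLS and WT KLS, and at -0.284 to -0.173 between TG MEP and those 3 groups. A replicate block gave 562 calls over all genes, against 319 without it, and left 2 of the 9 genes called. Crossing the numbers of the 2 TG MEP arrays, chosen after seeing the data, gave 1040 calls over all genes and 4 of the 9.

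Values of single genes changed sign in the following fits. None of them had passed. With the values as deposited and with median centring, in that order, Ftl1 was 0.034 and 0.09 between MEP and KLS cells of WT mice. Between TG and WT KLS cells Fth1 was 0.016 and 0.046, Ftl1 0.017 and 0.047 and Aco1 0.011 and 0.042. Between TG and WT MEP cells Slc11a2 was -0.026 and -0.053, Fth1 -0.0015 and -0.029 and Ireb2 -0.015 and -0.043, and Hmox1 was -0.00041 with median centring. Over both cell types Fth1 was 0.007 and 0.0087. In the interaction Tfrc was -0.013 and -0.071, Fth1 -0.017 and -0.075, Ftl1 -0.15 and -0.2, and Aco1 -0.14 and -0.2. Without both KLS arrays numbered 1, Ftl1 was 4.3e-05 between MEP and KLS cells of TG mice, Slc40a1 -0.007 between TG and WT KLS cells, Fth1 0.002 between genotypes over both cell types, and Tfrc -0.039 in the interaction. Leaving out 1 array at a time turned the sign of further values. The range between MEP and KLS cells of WT mice was -0.29 to 0.07 for Ftl1. The ranges between MEP and KLS cells of TG mice were -0.22 to 4.3e-05 for Ftl1 and -0.022 to 0.41 for Aco1. The ranges between TG and WT KLS cells were -0.094 to 0.27 for Slc11a2, -0.12 to 0.16 for Slc40a1, -0.064 to 0.025 for Fth1, -0.25 to 0.12 for Ftl1, -0.59 to 0.27 for Hmox1 and -0.27 to 0.16 for Aco1. The ranges between TG and WT MEP cells were -0.18 to 0.03 for Tfrc, -0.16 to 0.28 for Slc11a2, -0.24 to 0.041 for Steap3, -0.17 to 0.096 for Slc40a1, -0.051 to 0.078 for Fth1, -0.17 to 0.042 for Ftl1, -0.2 to 0.2 for Hmox1 and -0.14 to 0.052 for Aco1. The ranges between TG and WT over both cell types were -0.034 to 0.19 for Slc11a2, -0.079 to 0.062 for Slc40a1, -0.035 to 0.029 for Fth1, -0.15 to 0.027 for Ftl1, -0.29 to 0.13 for Hmox1 and -0.16 to 0.057 for Aco1. The ranges in the interaction were -0.041 to 0.17 for Tfrc, -0.24 to 0.19 for Slc11a2, -0.2 to 0.085 for Slc40a1, -0.031 to 0.098 for Fth1, -0.18 to 0.18 for Ftl1, -0.27 to 0.59 for Hmox1 and -0.21 to 0.22 for Aco1. The number of arrays, 2 a group, limits every one of these values.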

Other observations

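Of the 76 further iron genes measured, 4 had all TG arrays on 1 side of all WT arrays over both cell types, and 0 passed the threshold. Mms19, at -0.17, and Bmp6, at -0.19, were lower, and the other two are described here, chosen after their values were seen. Slc25a37, or mitoferrin, which carries iron into mitochondria of red cell precursors, read 8.23 and 8.65 in TG MEP cells, 9.74 and 9.27 in WT MEP cells, 8.45 and 8.75 in TG KLS cells, and 8.84 and 9.22 in WT KLS cells. Every TG array lay below every WT array, as for 1.02% of all genes, and the difference over both cell types was -0.75 (unadjusted p = 0.00128, adjusted p = 0.999 in limma). In MEP cells alone it was -1.06 ± 0.228 (SE; unadjusted p = 0.00123, adjusted p = 1 in limma), and -0.83 without WT MEP 1. The late erythroid markers stood beside it, with means of 9.24 and 9.34 on TG MEP arrays and 9.77 and 9.74 on WT MEP arrays. Of these 7 markers, 5 were lower in TG MEP cells and 2 higher, from -1.46 for Slc4a1 to 0.15 for Rhag with a median of -0.188. For 2 of the 7 the unadjusted p in limma was under 0.05, against 3.71% of all genes. The part of the late erythroid markers in the Slc25a37 difference was not tested.

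Flvcr2, a member of the family of haem and choline transporters, read 6.16 and 5.82 in TG MEP cells, 5.55 and 5.40 in WT MEP cells, 5.84 and 5.81 in TG KLS cells, and 5.45 and 5.38 in WT KLS cells. Every TG array lay above every WT array, as for 0.582% of all genes, and the difference over both cell types was 0.47 (unadjusted p = 0.00233, adjusted p = 0.999 in limma). In each single contrast the further iron genes with the smallest unadjusted p were those of the naming rule, and 0 passed between genotypes. In KLS cells these were Flvcr2, at 0.41 (unadjusted p = 0.0265, adjusted p = 1 in limma), and mitochondrial ferritin, Ftmt, at -0.31 (unadjusted p = 0.0667, adjusted p = 1 in limma). In MEP cells they were Slc25a37 and Hp, which was -1.21 (unadjusted p = 0.00295, adjusted p = 1 in limma) and -0.98 without WT MEP 1. Beside Hp, all 12 neutrophil markers were lower in TG than in WT MEP cells, with a median of -1.04, while 0 passed. For 9 of the 12 the unadjusted p in limma was under 0.05, against 3.71% of all genes. The mean of the 12 was 9.69 on WT MEP 1, 8.93 on WT MEP 2, and 8.21 and 8.32 on TG MEP arrays. The markers without WT MEP 1 are not given. Their part in the Hp difference was not tested. In the interaction they were Hjv, a coreceptor in hepcidin signalling, at 0.88 (unadjusted p = 0.0138, adjusted p = 1 in limma), and Hp, at -0.87 (unadjusted p = 0.0698, adjusted p = 1 in limma). Between MEP and KLS cells of WT mice they were Gclc, at 0.72 (adjusted p = 0.259 in limma), and Hp, at -1.29 (adjusted p = 0.282).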
